A study of Mus musculus with 4 samples.

Results

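The genes described here were the 33 listed genes that encode the enzymes of nucleotide, serine and one-carbon synthesis, of 39186 genes in the deposited table. They were matched by gene symbol, and all 33 were found once. The list was selected on knowledge of the pathway with the *Pich*-KO and *Pich*-WT values of these same samples already in view, so the differences between the groups are a description of the members and not independent support for any pattern. Their RNA was measured in LSK cells sorted from the fetal liver of C57BL/6 mice, that is, cells negative for lineage markers and positive for Sca-1 and c-Kit, a gate rich in hematopoietic stem cells. There were 2 samples from *Pich*-KO and 2 from *Pich*-WT fetal liver. *Pich*, listed as *Ercc6l*, encodes a DNA translocase of ultrafine anaphase bridges, and the KO allele is a germline deletion of a few bases near the start of the second exon, carried in all cells of the embryo. The labels name no Cre and no treatment for any sample, give no embryonic day and do not say whether a sample was 1 embryo or a pool.

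Cells build purines and pyrimidines on a ribose phosphate that PRPP synthetase supplies. The pyrimidine ring is finished before it joins the sugar, whereas the purine ring is assembled on the sugar step by step. Serine made from a glycolytic intermediate feeds both routes, since its side chain carbon is passed to folate and then into the purine ring and into thymidylate, and ribonucleotide reductase turns ribonucleotides into the deoxynucleotides used in DNA replication. Stem and progenitor cells of the fetal liver divide more than those of adult bone marrow, and dividing cells draw on these routes to copy DNA and make RNA.

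The samples held 14703215 to 20933919 reads assigned to genes. The values are normalized counts, that is, reads on a gene divided by a size factor of the sample, and a log2 fold change is *Pich*-KO minus *Pich*-WT on the scale log2(normalized count + 1), given ± its standard error from limma with n = 2 in each group. A gene was called higher or lower at an adjusted p under 0.05 in the limma fit over the 32428 genes whose mean reached 1. The *Pich* transcript itself counted 1142 and 1232 in *Pich*-KO against 772 and 661 in *Pich*-WT, so it does not check the genotype of a small deletion. Reads on *Ddx3y*, *Uty*, *Kdm5d* and *Eif2s3y*, all Y-linked, were present in 3 samples and at 0 in *Pich*-WT sample 2, which alone had over 100 reads on *Xist* (699). The LSK-defining genes *Kit*, at 4447 and 2772 in *Pich*-KO against 2328 and 2513 in *Pich*-WT, and *Ly6a*, the gene of Sca-1, at 3586 and 2978 against 901 and 1061, were present in every sample.

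Most of these enzymes had more mRNA in *Pich*-KO than in *Pich*-WT LSK cells. Of the 33 members, 25 were called higher, 0 lower and 8 neither, beside 7.58% of all genes tested called higher and 9.6% called lower. The median log2 fold change of the members was 0.77, beside 0.02 over all genes tested. In 29 members both *Pich*-KO values lay above both *Pich*-WT values, which held for 28.9% of all genes tested, and in the remaining *Ctps2*, *Tyms*, *Impdh1* and *Psph* the values of the groups overlapped. Members are abundant, and of the 6453 genes whose mean reached 500, a limit set after the data had been seen, 26.8% were called higher and 47.7% had both *Pich*-KO values on top, with a median log2 fold change of 0.11. Of the 33 members, 31 passed that limit and 25 of these were called higher, but the contrast that chose them is the one counted here and nothing is read from these shares.

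The count of members lower was 0 by limma, edgeR and DESeq2, also at an unadjusted p under 0.05. The count of members higher was 16 without *Pich*-KO sample 1 and 0 without any one of *Pich*-KO sample 2, *Pich*-WT sample 1 or *Pich*-WT sample 2, although 23 to 27 members then had an unadjusted p under 0.05 in limma. It was also 0 in a limma fit whose prior variance was the same for all genes, where 22 members had an unadjusted p under 0.05.

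**Figure D1:**
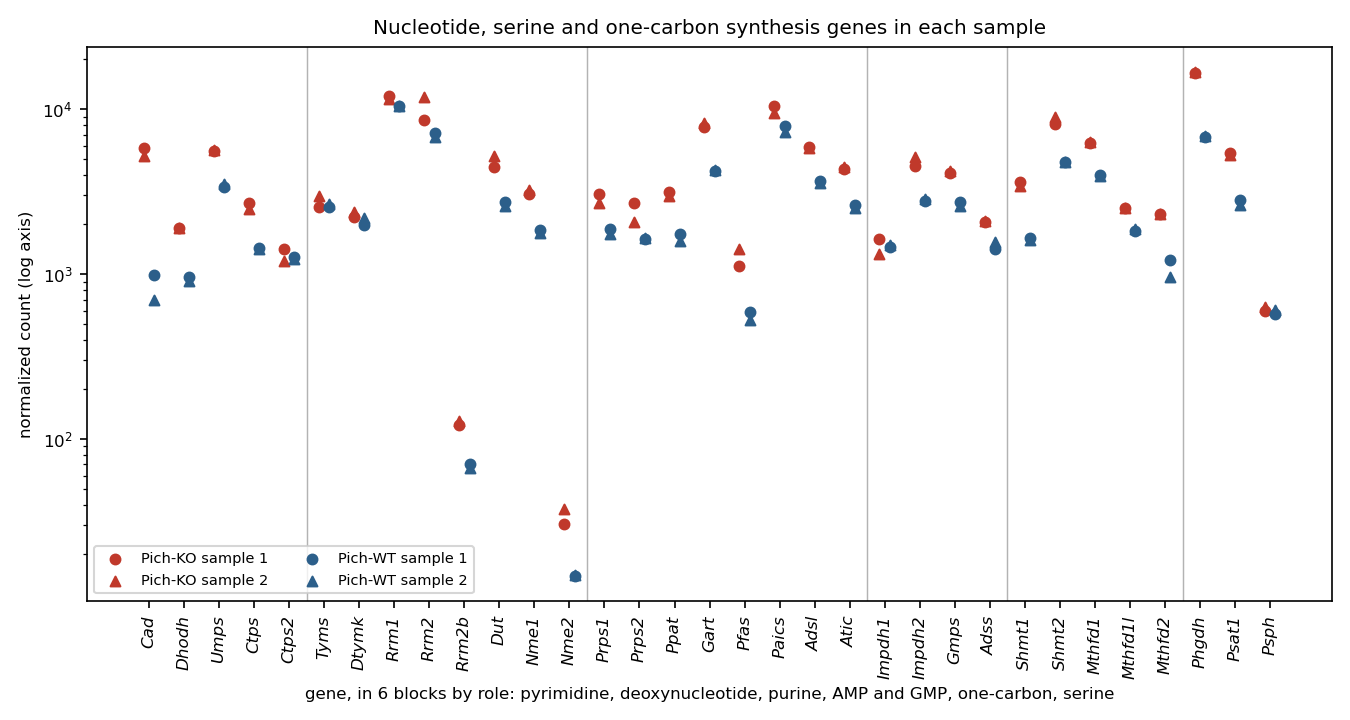
Normalized count (log axis) of each of the 33 genes in the 2 *Pich*-KO samples (red) and the 2 *Pich*-WT samples (blue), in 6 blocks by role. The red points lie above the blue points in 29 genes and mix with them in *Ctps2*, *Tyms*, *Impdh1* and *Psph*.

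The summed normalized count of the 33 genes was 146560 and 149754 in *Pich*-KO against 91043 and 89226 in *Pich*-WT, which is 0.884% and 0.896% of the reads on genes against 0.556% and 0.573%. The mean sum was 1.64-fold higher in *Pich*-KO. *Phgdh* alone gave 16.9% of the summed increase and *Cad* 8.0%, and without both genes the fold was 1.53. The *Pich*-KO samples lay close together, with a median absolute log2 difference of 0.08 over the members, beside 0.15 over genes whose mean reached 500. The largest such difference among the members was 0.45, in *Rrm2*.

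The promoters of *Cad*, *Phgdh*, *Shmt2* and *Tyms* are shown for the opening enzyme of the pyrimidine ring, the opening enzyme of serine synthesis and the mitochondrial one-carbon enzyme, whose normalized counts rose by most within their roles, and for thymidylate synthase, whose mRNA overlapped between the groups. The sequences are from RefSeq on GRCm38.p6, run 5′ to 3′ on the strand of the gene toward its start, and leave out bases annotated as exons. Capitals mark the motifs searched, which were the E-box CACGTG, an E2F-type site TTTNNCGC, an ATF4-type site TGATGNAA, the CCAAT box CCAAT, the GC box GGGCGG, an ETS-type site CCGGAAG and an NRF1-type site TGCGCA, each on both strands.
*Cad*, chr5:31054624-31054779, plus strand: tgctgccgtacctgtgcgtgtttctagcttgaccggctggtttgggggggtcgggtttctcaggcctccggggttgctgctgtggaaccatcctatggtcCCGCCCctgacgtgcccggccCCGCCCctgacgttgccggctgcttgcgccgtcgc
*Phgdh*, chr3:98339991-98340219, minus strand: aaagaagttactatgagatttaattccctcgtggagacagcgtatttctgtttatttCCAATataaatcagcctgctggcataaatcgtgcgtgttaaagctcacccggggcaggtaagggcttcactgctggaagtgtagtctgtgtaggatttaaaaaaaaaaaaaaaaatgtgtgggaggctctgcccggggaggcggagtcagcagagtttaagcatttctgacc
*Shmt2*, chr10:127522445-127522694, minus strand: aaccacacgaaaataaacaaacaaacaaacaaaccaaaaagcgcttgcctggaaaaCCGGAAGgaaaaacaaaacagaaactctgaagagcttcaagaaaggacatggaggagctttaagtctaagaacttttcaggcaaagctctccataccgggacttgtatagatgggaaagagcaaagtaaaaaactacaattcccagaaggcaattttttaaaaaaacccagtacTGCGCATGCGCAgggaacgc
*Tyms*, chr5:30073626-30073875, minus strand: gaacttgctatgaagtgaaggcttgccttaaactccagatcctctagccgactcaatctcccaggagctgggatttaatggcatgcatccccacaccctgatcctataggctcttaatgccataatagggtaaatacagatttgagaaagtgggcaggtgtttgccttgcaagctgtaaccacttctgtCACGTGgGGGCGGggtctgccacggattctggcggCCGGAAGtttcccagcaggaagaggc

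The *Cad* stretch held a pair of GC boxes on the opposite strand, whose first bases lay 56 and 35 bases before the start. Distances are counted from the RefSeq start, which is the start of the deposited table for *Cad* and *Shmt2* but lies 21 bases inside it for *Phgdh* and 8 bases outside it for *Tyms*. The *Phgdh* stretch held a CCAAT box 193 bases before the RefSeq start and none of the other motifs. In *Shmt2* an ETS-type site lay 194 bases before the start, and adjoining NRF1-type sites lay 20 and 14 bases before it. The *Tyms* stretch, of a member that was not called, held an E-box at 61, a GC box at 54 and an ETS-type site at 26 bases before the RefSeq start.

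Promoter windows of 250 bases before the start were matched for 30 of the 33 members, and not for *Dhodh*, *Rrm2b* and *Pfas*. The E-box, the site bound by MYC with MAX among other factors, was in 6 of 30 windows (20.0%), those of *Tyms*, *Dtymk*, *Nme1*, *Paics*, *Atic* and *Impdh2*, beside 6.86% of the windows of all 27025 genes matched and 11.0% of those of the 5122 matched genes whose mean reached 500. *Tyms* and *Dtymk* were not called and the other 4 were called higher. The GC box was in 22 windows (73.3%, beside 35.4% and 66.0%) and the CCAAT box in 14 (46.7%, beside 37.5% and 40.8%). The E2F-type site was in 4 windows (13.3%, beside 4.94% and 9.61%). The ETS-type site was in 5 (16.7%, beside 7.83% and 19.6%) and the NRF1-type site in 3 (10%, beside 7.36% and 15.5%). With 30 windows, none of these shares is read as higher or lower than those of other genes. The ATF4-type site was in 1, that of *Prps1* (3.33%, beside 3.91% and 2.26%). A match of letters is a description and not a bound site.

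The pyrimidine ring enzymes held the largest fold among the members. *Cad* (ENSMUSG00000013629, chromosome 5 from 31054780 to 31078479 on the plus strand of GRCm38) encodes the protein that joins carbamoyl phosphate synthetase, aspartate transcarbamylase and dihydroorotase, the opening steps of the route. Its normalized count was 5777 and 5189 in *Pich*-KO against 981 and 697 in *Pich*-WT, a mean 6.54-fold higher (log2 fold change 2.73 ± 0.16). The *Pich*-WT samples differed from each other here, and the log2 fold change was 2.97 without *Pich*-WT sample 1 and 2.48 without *Pich*-WT sample 2. Per kilobase of exon, the *Cad* level was 103 in *Pich*-WT, rank 30 of 33 members, and 670.1 in *Pich*-KO, rank 19.

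The later steps of the pyrimidine route had smaller log2 fold changes. *Dhodh*, the mitochondrial dihydroorotate dehydrogenase, counted 1908 and 1911 in *Pich*-KO against 957 and 911 in *Pich*-WT (log2 fold change 1.03 ± 0.11). *Umps*, which makes UMP from orotate, counted 5565 and 5613 against 3353 and 3530 (log2 fold change 0.70 ± 0.09). Both genes were called higher and their groups did not overlap.

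Of the CTP synthases, which make CTP from UTP, *Ctps* was called and *Ctps2* was not. *Ctps* counted 2692 and 2481 in *Pich*-KO against 1432 and 1418 in *Pich*-WT (log2 fold change 0.86 ± 0.11). *Ctps2*, the X-linked second CTP synthase, counted 1426 and 1192 against 1272 and 1227, overlapping values with a log2 fold change of 0.06 ± 0.13. The ratio of *Ctps* to *Ctps2* per kilobase was 2.69 and 2.96 in *Pich*-KO against 1.60 and 1.64 in *Pich*-WT, so the ratio separated the groups in these 4 samples.

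Serine synthesis had the most abundant member. *Phgdh* (ENSMUSG00000053398, chromosome 3 from 98313170 to 98339990 on the minus strand) encodes phosphoglycerate dehydrogenase, which draws serine carbon from glycolysis. It counted 16462 and 16744 in *Pich*-KO against 6742 and 6883 in *Pich*-WT (log2 fold change 1.29 ± 0.07). Per kilobase it ranked first among the members in both groups, at 2740.4 in *Pich*-WT and 6679 in *Pich*-KO. *Psat1*, the transaminase of the next step, counted 5402 and 5292 against 2794 and 2630 and was called higher (log2 fold change 0.98 ± 0.09). *Psph*, the phosphatase that releases serine, counted 599 and 629 against 575 and 609, values that overlapped at a log2 fold change of 0.05 ± 0.14. The annotation places 452 exon bases of *Psph* on top of *Cct6a* on the opposite strand. *Cct6a*, a chaperonin gene named here after its values were seen, counted 15438 and 15673 in *Pich*-KO against 10028 and 9611 in *Pich*-WT. Whether the counting used strand is not given in the sources used here, so the reads of such overlapping genes are uncertain. This also holds for *Umps*, with 213 exon bases on *Gm15829*, and *Shmt1*, with 184 on *Smcr8*, both on the opposite strand. *Gm15829* and *Smcr8* were named after the annotation was compared.

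All 5 folate one-carbon enzymes were called higher, beside 7.58% of all genes tested and 26.8% of those whose mean reached 500. *Shmt1* and *Shmt2*, the cytosolic and mitochondrial serine hydroxymethyltransferases, pass the serine carbon to tetrahydrofolate. *Shmt2* (ENSMUSG00000025403, chromosome 10 from 127517123 to 127522444 on the minus strand) counted 8169 and 9009 in *Pich*-KO against 4795 and 4746 in *Pich*-WT (log2 fold change 0.85 ± 0.09). *Shmt1* counted 3608 and 3415 against 1661 and 1606 (log2 fold change 1.10 ± 0.10). Although *Shmt2* stayed above *Shmt1* per kilobase in every sample, the ratio of *Shmt2* to *Shmt1* was lower in *Pich*-KO, at 2.83 and 3.29, than in *Pich*-WT, at 3.60 and 3.69.

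In mitochondria the carbon is oxidised by MTHFD2 and released as formate by MTHFD1L, and MTHFD1 takes it up again in the cytosol. *Mthfd2* counted 2321 and 2325 in *Pich*-KO against 1219 and 961 in *Pich*-WT (log2 fold change 1.10 ± 0.14). *Mthfd1l* counted 2519.5 and 2519 against 1829 and 1863 (log2 fold change 0.45 ± 0.10), the smallest of the 5. *Mthfd1* counted 6242 and 6335 against 3998 and 3948 (log2 fold change 0.66 ± 0.08). Each of these genes had both *Pich*-KO values above both *Pich*-WT values.

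All 8 genes of the purine ring were called higher, including the PRPP synthetases that stand before it. Of all genes tested, 7.58% were called higher, and of those whose mean reached 500, 26.8%. *Prps1* counted 3038 and 2699.8 in *Pich*-KO against 1874 and 1742 in *Pich*-WT (log2 fold change 0.66 ± 0.11). *Prps2* counted 2697 and 2073 against 1636 and 1660, and its *Pich*-KO samples differed from each other by more than the *Pich*-WT samples did. Its log2 fold change of 0.52 ± 0.14 became 0.33 without *Pich*-KO sample 1 and 0.71 without *Pich*-KO sample 2, and the gene was no longer called with a pseudocount of 0.1 or without the filter on the mean. Both genes are X-linked, and without *Pich*-WT sample 2, the sample without Y-linked reads, their log2 fold changes were 0.61 and 0.53, and that of *Ctps2* was 0.04.

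*Ppat*, the amidophosphoribosyltransferase that commits PRPP to purines, counted 3153 and 2956 in *Pich*-KO against 1739.6 and 1588 in *Pich*-WT (log2 fold change 0.88 ± 0.11). *Gart*, whose protein carries several of the middle steps, counted 7837 and 8179 against 4207 and 4246 (log2 fold change 0.92 ± 0.08). Of the 5144 exon bases of *Gart*, 1014 are shared with *Gm15964* on the opposite strand, so its reads carry the uncertainty given for *Psph*. *Gm15964* was named after the annotation was compared. *Pfas*, the amidotransferase of the ring, counted 1117 and 1421 against 592 and 529 (log2 fold change 1.17 ± 0.16). *Pfas* thus had the largest log2 fold change of the purine ring genes, from the lowest level among them per kilobase (70.7 in *Pich*-WT).

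*Paics*, which makes SAICAR, had the smallest log2 fold change of the ring genes. It counted 10370.4 and 9488 in *Pich*-KO against 7853 and 7306 in *Pich*-WT (log2 fold change 0.39 ± 0.08), from a level per kilobase of 2415 in *Pich*-WT that was the third highest of all members. *Adsl*, the adenylosuccinate lyase used in the ring and again on the way to AMP, counted 5907 and 5775 against 3639 and 3546 (log2 fold change 0.70 ± 0.08). *Atic*, which closes the ring to IMP, counted 4361 and 4479 against 2636 and 2507 (log2 fold change 0.78 ± 0.09).

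*Paics* and *Ppat* lie head to head on chromosome 5 on opposite strands, with annotated starts 271 bases apart and 272 shared exon bases. Their ratio per kilobase, *Paics* over *Ppat*, was 4.63 and 4.52 in *Pich*-KO against 6.36 and 6.48 in *Pich*-WT. Both divergent neighbours were called higher, and this ratio was lower in both *Pich*-KO samples.

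**Figure D2:**
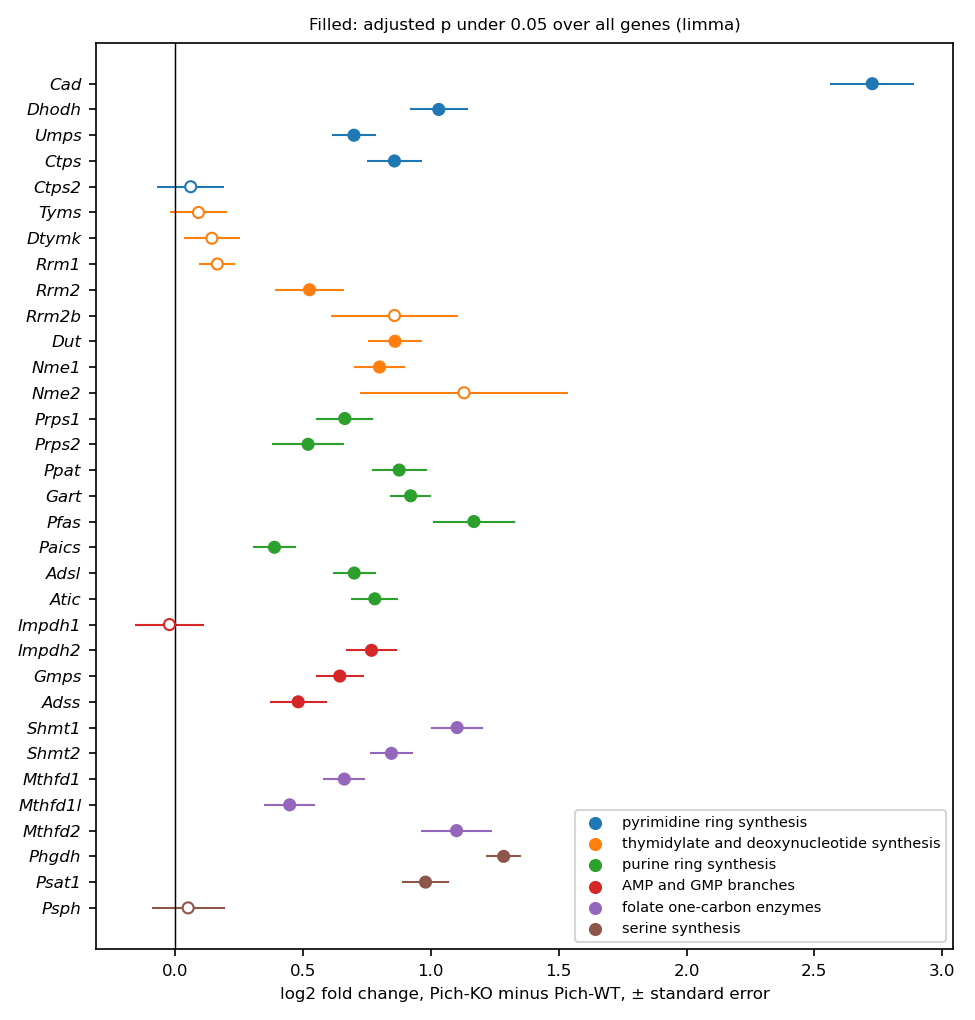
Log2 fold change (*Pich*-KO minus *Pich*-WT, ± standard error from limma, n = 2 in each group) of the 33 genes, coloured by role; filled points mark an adjusted p under 0.05 over all genes tested. *Cad* stands at 2.73, and the 8 open points are *Ctps2*, *Tyms*, *Dtymk*, *Rrm1*, *Rrm2b*, *Nme2*, *Impdh1* and *Psph*.

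On the branches from IMP, 3 of 4 genes were called higher, beside 7.58% of all genes tested and 26.8% of those whose mean reached 500. *Impdh2*, an IMP dehydrogenase of the GMP branch, counted 4535 and 5107 in *Pich*-KO against 2784 and 2866 in *Pich*-WT (log2 fold change 0.77 ± 0.10). *Impdh1*, the second IMP dehydrogenase, counted 1631 and 1317 against 1466 and 1509, and both *Pich*-WT values fell between the *Pich*-KO values, at a log2 fold change of -0.02 ± 0.14. The ratio of *Impdh2* to *Impdh1* per kilobase was 2.98 and 4.15 in *Pich*-KO against 2.03 and 2.03 in *Pich*-WT. A copy listed as *Impdh2-ps*, named after its values were seen, counted 1344 and 1390.2 against 792 and 840, and reads of near-identical copies may have been split between them. The same holds for *Prps1* and its listed copy *Prps1l3*, also named after its values were seen, which counted 1494 and 1425 against 966 and 1006.

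*Gmps*, which makes GMP, counted 4074 and 4237 in *Pich*-KO against 2729.8 and 2586 in *Pich*-WT (log2 fold change 0.64 ± 0.09). *Adss*, which opens the AMP branch, counted 2068 and 2088 against 1412 and 1567 (log2 fold change 0.48 ± 0.11). Both branches therefore held a gene called higher.

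Thymidylate and deoxynucleotide synthesis had the lowest share of calls among the roles, with 3 of 8 genes higher. This stands beside 7.58% of all genes tested and 26.8% of those whose mean reached 500. *Nme2* and *Rrm2b* did not reach that mean, and nothing is read from the rank of this role. *Tyms* (ENSMUSG00000025747, chromosome 5 from 30058202 to 30073617 on the minus strand), the folate-dependent thymidylate synthase, counted 2553 and 2992 in *Pich*-KO against 2545 and 2642 in *Pich*-WT, overlapping values at a log2 fold change of 0.09 ± 0.11. *Dtymk*, the thymidylate kinase, counted 2225 and 2386 against 1987 and 2187 and was not called (log2 fold change 0.14 ± 0.11). *Dut*, the dUTPase that keeps uracil out of DNA and supplies dUMP, counted 4484 and 5207 against 2728 and 2596 and was called higher (log2 fold change 0.86 ± 0.11).

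*Rrm1*, the large subunit of ribonucleotide reductase, counted 11991 and 11516 in *Pich*-KO against 10502 and 10449 in *Pich*-WT and was not called, although the groups did not overlap (log2 fold change 0.17 ± 0.07). *Rrm2*, the small subunit of cycling cells, counted 8610.0 and 11779 against 7178 and 6812, so that most of its difference came from *Pich*-KO sample 2. Its log2 fold change of 0.53 ± 0.14 was 0.75 without *Pich*-KO sample 1 and 0.30 without *Pich*-KO sample 2, and the call was lost with a pseudocount of 0.1 and without the filter on the mean. *Rrm2b*, the p53-inducible small subunit, was the member lowest per kilobase and counted 122 and 128 against 70.3 and 67. Its log2 fold change of 0.86 ± 0.25 just missed the call (adjusted p = 0.0507 from limma). *Rrm2b* was called higher with a minimum of 10 in each sample, with edgeR and with the replicate block, whose numbers did not pair the samples. It stayed uncalled with DESeq2, with a pseudocount of 0.1 and without the filter on the mean. The *Rrm2* to *Rrm2b* ratio per kilobase was 232 and 302 in *Pich*-KO against 336 and 335 in *Pich*-WT. Of the 9134 exon bases of *Rrm2b*, 734 are shared with *Gm49085* on the opposite strand, named after the annotation was compared.

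The nucleoside diphosphate kinase *Nme1* counted 3066 and 3234 in *Pich*-KO against 1840.5 and 1777 in *Pich*-WT and was called higher (log2 fold change 0.80 ± 0.10). *Nme2* counted 30.5 and 37.5 against 14.8 and 15 and was not called at this low count (log2 fold change 1.13 ± 0.41). Of the 1171 exon bases of *Nme2*, 573 are shared with *Gm20390*, a gene model on the same strand that is not analysed here and that also shares 418 exon bases with *Nme1*, so the *Nme2* level is uncertain. *Gm20390* was named after the annotation was compared.

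**Figure D3:**
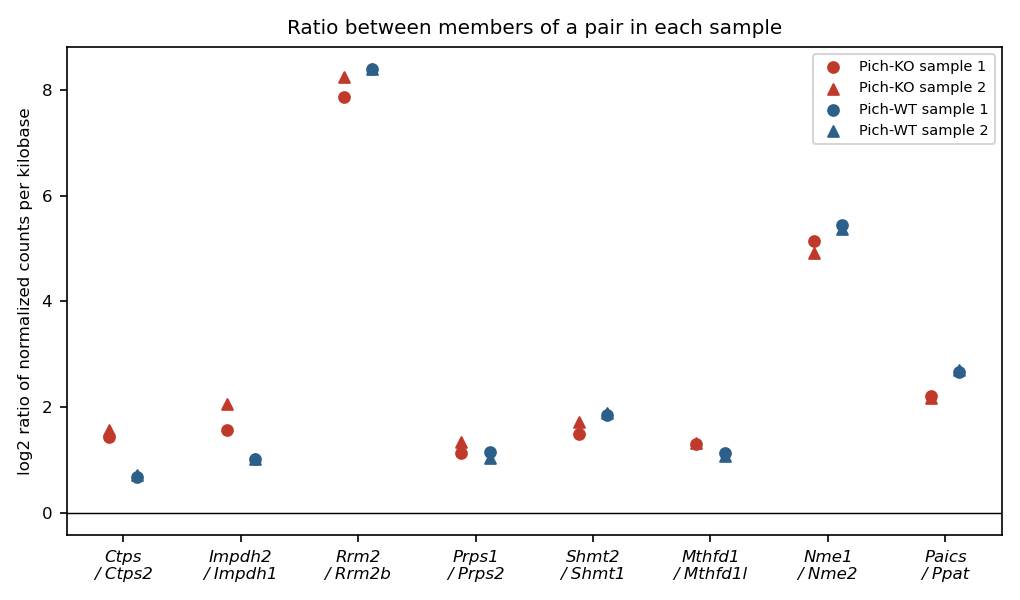
Log2 ratio of normalized counts per kilobase between the members of a pair, in the 2 *Pich*-KO samples (red) and the 2 *Pich*-WT samples (blue); 0 marks equal levels. The ratio separates the groups in 7 of 8 pairs, upward in *Pich*-KO for *Ctps* over *Ctps2*, *Impdh2* over *Impdh1* and *Mthfd1* over *Mthfd1l*, and overlaps for *Prps1* over *Prps2*. Of the 6453 single genes whose mean reached 500, 3077 had both *Pich*-KO values above both *Pich*-WT values and 2212 had both below. Separation is thus common with 2 samples in each group, and nothing is read from the count of pairs.

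Levels per kilobase kept a similar order in both groups at the top. *Phgdh*, *Rrm2*, *Paics*, *Shmt2*, *Dut* and *Umps* ranked first to sixth in *Pich*-WT and again in *Pich*-KO. At the bottom *Nme2* and *Rrm2b* held ranks 32 and 33 in both. *Tyms* moved from rank 18 in *Pich*-WT to 26 in *Pich*-KO and *Impdh1* from 16 to 27, at levels per kilobase of 426 and 455 for *Tyms* and 452 and 447 for *Impdh1*. Neighbours such as *Tyms* and *Prps2* in *Pich*-WT, at 426 and 426, lay too close for their order to be read.

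**Figure D4:**
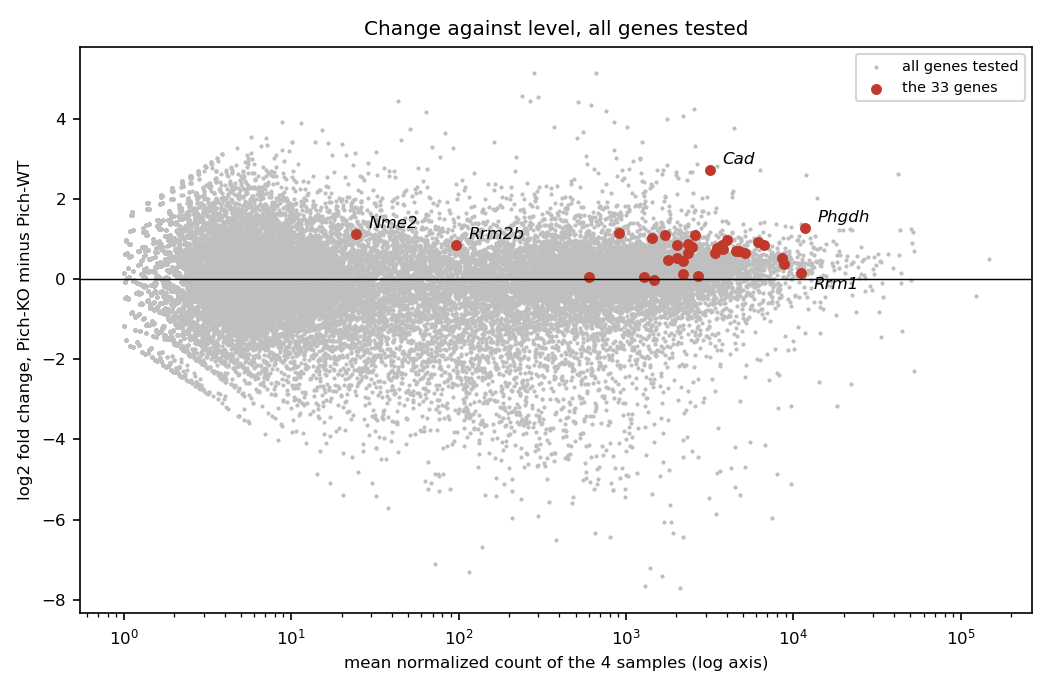
Log2 fold change (*Pich*-KO minus *Pich*-WT) against mean normalized count of the 4 samples (log axis) for the 32428 genes tested (grey) and the 33 genes described here (red). The red points lie between -0.02 and 2.73, and 31 of them have a mean of 500 or more.

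By role, the summed normalized count was 2.14-fold higher in *Pich*-KO for pyrimidine ring synthesis, 2.23-fold for serine synthesis, 1.74-fold for the folate one-carbon enzymes, 1.60-fold for the purine ring, 1.48-fold for the AMP and GMP branches and 1.32-fold for thymidylate and deoxynucleotide synthesis. The *Pich*-KO sums lay above the *Pich*-WT sums in each role. The median log2 fold changes of the genes in these roles were, in the same order, 0.86, 0.98, 0.85, 0.74, 0.56 and 0.66.

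Many replication genes, but not all, also had more mRNA in *Pich*-KO. Of 16 genes in an S phase list, 9 were called higher and 0 lower by limma, with a median log2 fold change of 0.38 and a summed count 1.29-fold higher. The largest were *Ccne1*, the cyclin of S phase entry, at 2097 and 2402 in *Pich*-KO against 1522 and 1384 in *Pich*-WT (log2 fold change 0.63 ± 0.12), and *Cdt1*, a licensing factor, at 3547 and 4016 against 2648 and 2530 (0.54 ± 0.10). *Pcna*, the replication clamp, counted 6108 and 7218 against 5253 and 4935 (log2 fold change 0.38 ± 0.10). The other 7 genes were not called, and the groups overlapped in *Mki67* and *Slbp*, both named after their values were seen. *Mki67* counted 3440 and 4072 against 3956 and 3820 (log2 fold change -0.05 ± 0.11). *Slbp* counted 5089 and 6353 against 5167 and 4789 (log2 fold change 0.19 ± 0.12). The count of S phase genes higher was 0 without any one sample, and the counts of the lists that follow were 0 without any one sample other than *Pich*-KO sample 1. In these lists the value in brackets is the log2 fold change ± its standard error. The shares to set beside the counts of each list, markers included, are 7.58% higher and 9.6% lower over all genes tested. Of the 6453 genes whose mean reached 500, 1730 (26.8%) were called higher and 1274 lower. All S phase genes reached that mean, and the other lists hold genes on both sides of it.

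Divided by the S phase sum of the same sample, the sum of all 33 members was 1.26 and 1.26 in *Pich*-KO against 0.978 and 0.997 in *Pich*-WT. The same ratio for pyrimidine ring synthesis was 0.150 and 0.138 against 0.0859 and 0.0869, and for serine synthesis 0.194 and 0.190 against 0.109 and 0.113. For thymidylate and deoxynucleotide synthesis the ratio was 0.285 and 0.313 against 0.289 and 0.296, so these overlapped. The other 3 roles had both *Pich*-KO ratios above both *Pich*-WT ratios. With 2 samples against 2, no exact permutation test of a single ratio can pass a threshold of 0.05, and none was run.

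Among the other folate and methionine cycle genes, 7 of 25 were called higher and 4 lower, with a median log2 fold change of 0.29. *Ahcy*, which clears S-adenosylhomocysteine, counted 2885 and 3281 in *Pich*-KO against 1509 and 1481 in *Pich*-WT (1.04 ± 0.11). At the other end stood *Folr2*, a folate receptor of macrophages, at 1.09 and 0 against 77.4 and 73, and *Gldc*, of the glycine cleavage system, at 14.2 and 6.82 against 86.7 and 53 (-2.66 ± 0.48).

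Nucleotide salvage moved in both directions, with 9 of 24 genes called higher and 4 lower and a median log2 fold change of 0.26. *Cmpk2*, a mitochondrial nucleotide kinase induced by interferon, counted 4135 and 2792 in *Pich*-KO against 490.0 and 580 in *Pich*-WT (2.67 ± 0.19), and *Ak4*, a mitochondrial adenylate kinase, 592 and 410.4 against 103 and 96 (2.30 ± 0.23). *Cda*, cytidine deaminase, counted 4.36 and 4.55 against 66.4 and 49 (-3.41 ± 0.45) and *Upp1*, uridine phosphorylase, 46.9 and 20.5 against 159 and 87 (-1.89 ± 0.46). *Tk1*, the thymidine kinase of S phase, at 2049 and 2379 against 2273 and 2263 (-0.04 ± 0.11), and *Dck*, deoxycytidine kinase, at 3180.5 and 2887 against 2629.8 and 2719 (0.18 ± 0.10), were not called.

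Of 19 genes of nucleotide breakdown and dNTP control, 3 were called higher and 2 lower, with a median log2 fold change of 0.16. *Dctpp1*, which removes dCTP, counted 2013 and 2056 in *Pich*-KO against 1116 and 1108 in *Pich*-WT (0.87 ± 0.11) and *Dctd*, which makes dUMP from dCMP, 1524 and 1246 against 860.4 and 978 (0.59 ± 0.15). *Gmpr*, GMP reductase, counted 951 and 874 against 2316 and 1902 (-1.20 ± 0.14), *Ampd3*, an AMP deaminase of red cells, 371 and 375 against 744 and 628 (-0.87 ± 0.16), and *Samhd1*, the dNTPase, 2534 and 1956 against 2101 and 2075, which was not called (0.09 ± 0.14).

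Of 12 transcription factor genes known to act on these pathways or on the cell cycle, 4 were called higher and 4 lower, with a median log2 fold change of 0.0002. *Myc* counted 8316 and 9910.1 in *Pich*-KO against 4226 and 3854 in *Pich*-WT (1.17 ± 0.11) and *Gabpa*, an ETS factor, 1168 and 1200.4 against 514 and 523 (1.19 ± 0.13). *Atf4*, which drives serine synthesis genes under amino acid stress, was also called higher at 4813 and 5057 against 3662 and 3656 (0.43 ± 0.09). *E2f1* at 673 and 283 against 1538 and 1374 (-1.73 ± 0.34) and *E2f2* at 466 and 682 against 1569 and 1375 (-1.38 ± 0.19) were called lower. So were *Mycn*, a relative of *Myc*, at 1311 and 767 against 1933 and 2328 (-1.08 ± 0.23) and *Atf3* at 2364 and 1335 against 3775 and 3044 (-0.93 ± 0.24), both named after their values were seen. The E2F genes did not move together. *E2f3* was called higher at 632 and 617 against 356 and 298 (0.94 ± 0.16), and *E2f8* was not called (-0.20 ± 0.14). Both were also named after their values were seen. The part of any of these genes in the levels of the 33 members was not tested.

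The sorted samples also differed in genes of other cells. All 12 macrophage markers were called lower (median log2 fold change -5.02), and their summed count was 8023 to 9149 in *Pich*-KO against 59362 to 60902 in *Pich*-WT, which is 0.0480% to 0.0552% of reads on genes against 0.363% to 0.391%. Among them *Csf1r* counted 7268 and 6111 in *Pich*-KO against 16306 and 17259 in *Pich*-WT, and *C1qb* 387 and 380 against 9681 and 10167. *Vsig4*, the marker with the lowest *Pich*-WT level, was at 2.18 and 0 against 55.5 and 43. These genes were named after their values were seen. Of 12 erythroid markers 10 were called lower, with sums of 35667 to 37478 against 136453 to 193109, and of 10 hepatocyte markers 6 were called lower, with sums of 2801 to 3170 against 4581 to 5106. Of the 10 LSK genes, *Ly6a* was called higher and *Procr*, *Hlf*, *Mecom* and *Slamf1*, named after their values were seen, lower. No marker of these lists is a member. In bulk samples fewer cells of a type and less RNA per cell cannot be told apart, and the part of these differences in the members' levels was not tested.

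**Figure D5:**
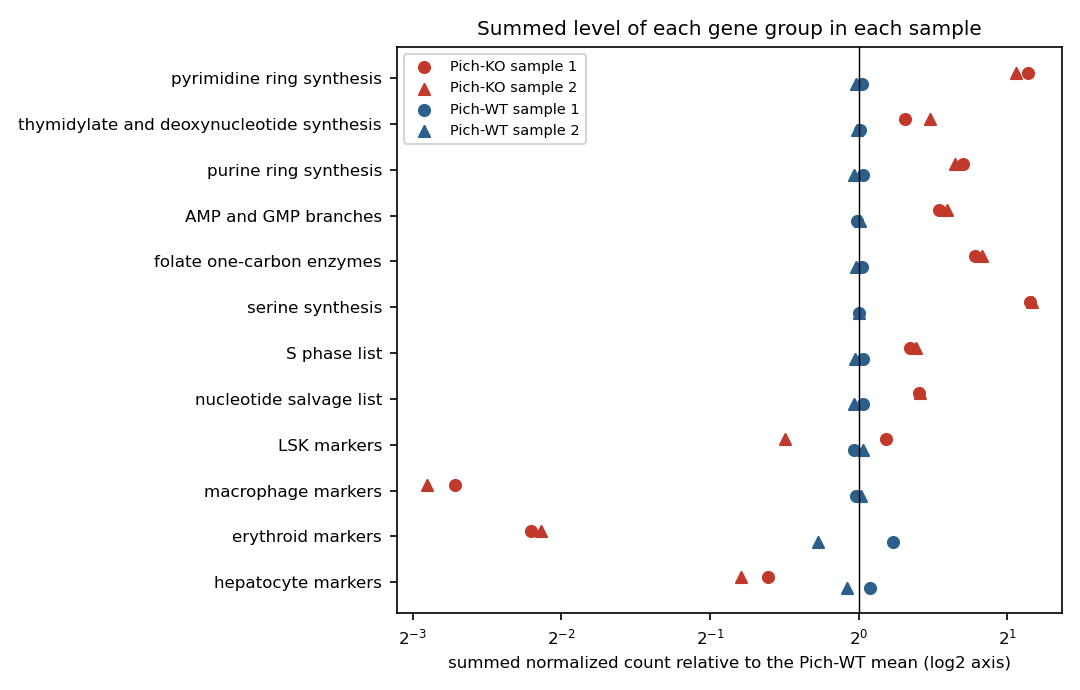
Summed normalized count of each gene group relative to the *Pich*-WT mean (log2 axis) in the 2 *Pich*-KO samples (red) and the 2 *Pich*-WT samples (blue). The 6 roles, the S phase list and the salvage list lie right of 1 in both *Pich*-KO samples, the macrophage, erythroid and hepatocyte markers left of it, and the LSK markers on both sides.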

How the data were processed

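RNA sequencing of sorted fetal liver LSK cells (TruSeq RNA libraries) was analysed from the deposited table for 2 *Pich*-KO and 2 *Pich*-WT samples. Each deposited value is a signal: the authors scaled the reads counted on a gene by a size factor of its sample. The submitters' processing notes name Bowtie 0.12.2 and the builds mm8 and mm9, while 97.8% of the 39131 genes found in GENCODE M21 had the table's start and end, so coordinates are given on GRCm38. The counter, its annotation and its use of strand are not given in the sources used here. The table's group means and its own comparison columns (fold changes and p-values) were not used. All values (100%, tolerance 0.001) were whole multiples of one step per sample, which gave back the reads.

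limma 3.58.1 (R 4.3.3) was fitted to log2(normalized count + 1), with the prior variance following the mean (trend), for the 32428 genes whose mean reached 1, and p-values were adjusted by Benjamini-Hochberg over all of them. Samples of a group differed beyond sampling noise (chi-square per degree of freedom 14.7 and 8.18). The labels do not say that they came from separate embryos, so p-values measure the spread between these samples, which may be technical. Alternatives were a pseudocount of 0.1, no filter, at least 10 in every sample, a replicate block, one prior variance, edgeR 4.0.16 with TMM or upper-quartile scaling and DESeq2 1.42.0 on the recovered reads, and leaving out each sample. The fit was also run on simulated counts with 1 fixed dispersion and far fewer changed genes than were called here. That setting differs from these data, so nothing is read from it about the calls.

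The members, the lists, the markers and the named genes were chosen with earlier results of these data known. Named were all members, from each other list the 2 called genes at either end of the log2 fold changes, and *Tk1*, *Dck*, *Samhd1*, *Myc*, *Atf4*, *Pcna*, *Ercc6l*, *Kit* and *Ly6a*. The values of further genes under this rule are not reported here. Levels per kilobase use the table's gene length, which equals the merged exon length for all 33 members.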

Additional observations from a re-analysis of the deposited data

How the results depend on the processing

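With 2 samples in each group, counts of calls rested on every sample. Leaving out each sample in turn, with a group of 1 assumed to vary like the other group, gave 0 to 548 genes higher and 0 to 1193 lower over all genes tested, 0 to 16 members higher and a median log2 fold change of the members of 0.75 to 0.80. The listed genes called then ranged from 0 to 4 (folate and methionine cycle higher), 0 to 2 (lower), 0 to 4 (salvage higher), 0 to 0 (salvage lower), 0 to 1 (breakdown higher), 0 to 0 (breakdown lower), 0 to 2 (regulators higher), 0 to 1 (regulators lower) and 0 to 0 (S phase higher). Every count above 0 came from the fit without *Pich*-KO sample 1. With one prior variance for all genes limma called 0 genes in each of these counts, with 7377 genes at an unadjusted p under 0.05. The members' median was 0.79 with edgeR and TMM and 0.80 with upper-quartile scaling. Breakdown genes higher were 5 in both edgeR fits and with at least 10 in every sample, where 2 folate and methionine cycle genes were lower, and without the filter on the mean 1 regulator was lower. The replicate numbers did not pair the samples (correlation of same-numbered deviations 0.01 over 10544 genes), and the replicate block gave 3122 genes higher and 3874 lower, 26 members higher, and moved no other count by over 1.5 times. DESeq2 called the same 25 members, and edgeR these and *Rrm2b*. *Impdh1* turned to 0.0077 and 0.016 with edgeR under TMM and upper-quartile scaling. Over the fits without one sample it ranged from -0.17 (without *Pich*-KO sample 1) to 0.13 (without *Pich*-KO sample 2), *Tyms* from -0.022 (without *Pich*-KO sample 2) to 0.21 and *Ctps2* from -0.067 (without *Pich*-KO sample 1) to 0.19, and none of the 3 was called. The causes of these shifts were not tested. The low counts of *Nme2* and *Rrm2b* limit what depth can show for them.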
